A study of Mus musculus with 43 samples.

Results

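Apelin and adrenomedullin signalling was followed through 7 genes, which are 7 of the 57010 rows of a table of read counts from mouse hearts. The genes were taken by name, with earlier results of these data known: the apelin gene Apln and its receptor gene Aplnr, the adrenomedullin gene Adm and its receptor gene Calcrl, and the genes of the accessory proteins Ramp1, Ramp2 and Ramp3. The study made a CRISPR/Cas9 mouse allele, Q150X, that puts a stop codon into Vegfa, the gene of a main growth factor of blood vessels, after a stop-gained variant of the human gene, and asked what it does at homeostasis (no injury) and after myocardial infarction (MI). Whole hearts (labelled as total cells) of the Q150X genotype gave 3 libraries at homeostasis, 4 at 7 days and 4 at 30 days after MI, and wild-type hearts gave 3, 4 and 3. Endothelial cells, the lining cells of vessels, gave 3 libraries at homeostasis and 2 at 3 days after MI in each genotype. Cardiomyocytes, the contractile cells, gave 3 at homeostasis and 3 at 3 days after MI in each genotype. The labels abbreviate Q150X as HO and name tissue, cell type, genotype and treatment. By the GENCODE vM21 annotation the genes lie on chromosomes X (Apln, ENSMUSG00000037010), 2 (Aplnr, ENSMUSG00000044338, and Calcrl, ENSMUSG00000059588), 7 (Adm, ENSMUSG00000030790), 1 (Ramp1, ENSMUSG00000034353) and 11 (Ramp2, ENSMUSG00000001240, and Ramp3, ENSMUSG00000041046). Strain, age, sex, the way cells were isolated and whether replicates are separate animals are not stated in the labels, so p-values measure the spread between libraries, which may be technical.

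Heart libraries held 25948706 to 37356177 counts, endothelial libraries 32008175 to 45243608 and cardiomyocyte libraries 25035490 to 42246348, and all 7 genes passed the filter on low counts in each of the 3. The 11 endothelial markers, of which none was at 0 in any library, summed to 8752 to 10490 CPM (counts scaled to library size) in endothelial cells at homeostasis, 757 to 1513 in hearts and 199 to 708 in cardiomyocytes. The 8 cardiomyocyte markers summed to 348 to 562, 45640 to 74140 and 70800 to 85460 CPM in the same order. Several libraries departed from their groups in such markers. Library 2 of the Q150X endothelial cells of day 3 had 780 CPM of endothelial markers, 2639 CPM of 10 leukocyte markers and 1266 CPM of 3 lymphoid precursor markers. All 4 endothelial libraries of day 3 held the X-inactivation RNA Xist at 325 to 853 CPM and Y-linked Ddx3y at 0.333 CPM or less, while the 6 of homeostasis held Ddx3y at 138 to 200.4 CPM, so sex and time cannot be told apart in endothelial cells. Heart homeostasis libraries 1 had 1754 (Q150X) and 1858 CPM (wild type) of 5 atrial markers, and wild-type heart library 4 of day 7 had 756 CPM of 2 placental markers.

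Apelin is a secreted peptide that acts through Aplnr, a G-protein-coupled receptor of endothelium and heart muscle; the pair is known for vessel growth, vessel relaxation and support of contraction. Adrenomedullin is a vasodilator peptide that also tightens the endothelial barrier. Its receptor, Calcrl, works only as a complex with a single-pass partner: Ramp2 or Ramp3 makes it an adrenomedullin receptor, and Ramp1 makes it the receptor of calcitonin gene-related peptide (CGRP), the product of Calca and Calcb. Adm and Apln are both known as genes that low oxygen induces.

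The start regions of the ligand genes and of Calcrl and Ramp3 are shown because the members did not move together after MI and because a hypoxia-responsive list is reported with them. Windows of 300 bases, from 250 bases before to 50 after the start, came from RefSeq (GRCm38.p6); Aplnr and Ramp2 are named only. Capitals mark the core of the hypoxia response element, ACGTG or GCGTG on either strand, which 43.8% of 32851 such windows held.
Apln, chrX:48034804-48035103, minus strand: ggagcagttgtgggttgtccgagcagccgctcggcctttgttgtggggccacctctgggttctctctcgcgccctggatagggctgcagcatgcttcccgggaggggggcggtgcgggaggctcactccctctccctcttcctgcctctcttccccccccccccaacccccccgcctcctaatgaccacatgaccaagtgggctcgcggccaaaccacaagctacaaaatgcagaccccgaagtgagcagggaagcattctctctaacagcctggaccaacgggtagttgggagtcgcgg
Adm, chr7:110627407-110627706, plus strand: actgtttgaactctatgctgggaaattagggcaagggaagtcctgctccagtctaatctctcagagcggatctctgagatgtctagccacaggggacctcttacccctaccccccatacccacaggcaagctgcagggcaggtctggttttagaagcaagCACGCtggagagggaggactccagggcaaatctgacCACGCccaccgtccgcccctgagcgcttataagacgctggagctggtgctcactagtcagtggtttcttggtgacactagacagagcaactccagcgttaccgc
Calcrl, chr2:84425217-84425516, minus strand: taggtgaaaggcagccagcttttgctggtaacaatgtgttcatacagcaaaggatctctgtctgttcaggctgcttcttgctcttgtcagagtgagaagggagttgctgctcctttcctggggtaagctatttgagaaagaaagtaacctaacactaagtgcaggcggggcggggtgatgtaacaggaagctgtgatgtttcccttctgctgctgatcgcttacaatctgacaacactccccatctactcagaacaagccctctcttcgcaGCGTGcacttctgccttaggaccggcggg
Ramp3, chr11:6658283-6658582, plus strand: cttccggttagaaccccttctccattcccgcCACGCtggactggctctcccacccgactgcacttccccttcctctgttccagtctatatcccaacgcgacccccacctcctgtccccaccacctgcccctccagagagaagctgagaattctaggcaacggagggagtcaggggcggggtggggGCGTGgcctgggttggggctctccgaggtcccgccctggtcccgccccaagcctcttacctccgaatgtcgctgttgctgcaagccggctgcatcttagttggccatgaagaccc
The Adm window held 2 cores, at 90 and 54 bases before the start (positions -90 and -54), the Ramp3 window 2 (-219 and -65) and the Calcrl window 1 (22, counted with the start base as 1). The Apln and Ramp1 windows held none. The ETS core GGAAG (either strand; in 71.4% of windows), which factors of endothelial genes can bind, occurred 4 times for Apln, 3 for Ramp3, 1 each for Adm and Calcrl and 0 for Ramp1, with no overlap with the hypoxia core searched for. The AP-1 letters TGANTCA (in 7.81% of windows) occurred in none of the 5. These are matches of letters, not binding sites.

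At homeostasis the receptors of both pathways, the adrenomedullin ligand and the partners Ramp2 and Ramp3 were higher in endothelial cells than in cardiomyocytes, and Apln gave no called difference. In Q150X 5 of the 7 members differed between the fractions (Aplnr, Adm, Calcrl, Ramp2 and Ramp3, all higher in endothelial cells), against 72.1% of all 17617 genes tested. In wild type these 5 were higher and Ramp1 was lower, 6 in all, against 70.4% of all genes. Since most genes differed between the fractions, the counts are near the background. The fitted folds of the members called in both genotypes ran from 4.47 to 41.7 in Q150X. The median signed log2 change of all genes, in which rises and falls offset each other, was 0.26 in Q150X and 0.20 in wild type. It does not give the size of a typical difference.

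Apln, the apelin ligand, stood at 11.4, 16.8 and 28.8 CPM in the 3 Q150X endothelial libraries and 14.9, 22.5 and 17.04 in Q150X cardiomyocytes. In wild type it was 17.05, 20.2 and 24.7 CPM in endothelial cells and 23.6, 13.4 and 15.98 in cardiomyocytes. The ranges overlapped in both genotypes, and the fitted log2 fold changes were -0.11 ± 0.29, adjusted p = 0.753 and 0.05 ± 0.29, adjusted p = 0.894. Scaling by library size alone, which moves the median of all genes to 1.41 in Q150X and 1.52 in wild type, turned them to 1.04 and 1.35, below those medians.

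Aplnr, the apelin receptor, had 91.02, 99.6 and 108 CPM in Q150X endothelial cells and 4.004, 5.92 and 3.22 in Q150X cardiomyocytes (4.33 ± 0.30, adjusted p = 6.77e-10). Wild-type endothelial cells had 112, 110.4 and 136 CPM and wild-type cardiomyocytes 5.66, 10.8 and 5.77 (3.83 ± 0.29, adjusted p = 2.59e-09). Every endothelial library lay above every cardiomyocyte library, by fitted folds of 20.1 in Q150X and 14.2 in wild type. The apelin receptor gene thus had separated fractions where its ligand gene had overlapping ones.

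Adm, the adrenomedullin ligand, had 16.6, 15.3 and 19.98 CPM in Q150X endothelial cells and 3.08, 2.69 and 4.56 in Q150X cardiomyocytes (2.16 ± 0.44, adjusted p = 0.000308). The wild-type values were 16.7, 19.9 and 20.1 CPM in endothelial cells and 2.39, 3.47 and 2.91 in cardiomyocytes (2.51 ± 0.45, adjusted p = 9.16e-05). Of the members higher in endothelial cells it differed least, with fitted folds of 4.47 and 5.68.

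Calcrl, the adrenomedullin and CGRP receptor, had 174, 186 and 277 CPM in Q150X endothelial cells and 4.71, 5.61 and 4.22 in Q150X cardiomyocytes (5.28 ± 0.43, adjusted p = 5.52e-09). Its wild-type values were 222, 208 and 184 CPM in endothelial cells and 7.58, 17.8 and 8.401 in cardiomyocytes (4.0 ± 0.40, adjusted p = 9.50e-08). Its highest homeostasis value in cardiomyocytes, in wild-type library 2, came with the highest endothelial marker sum of the 12 cardiomyocyte libraries (708 CPM, against 199 to 404 in the other 11), and the part of endothelial RNA in it was not tested. Aplnr and Ramp2 were also highest in that library among the homeostasis cardiomyocytes.

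Ramp2, the partner that gives Calcrl its adrenomedullin specificity in vessels, had 126, 110.3 and 181 CPM in Q150X endothelial cells and 3.14, 3.86 and 1.87 in Q150X cardiomyocytes (5.38 ± 0.37, adjusted p = 6.85e-10). Wild-type libraries had 114, 116 and 132 CPM and 3.03, 8.11 and 3.996 CPM in the same fractions (4.39 ± 0.35, adjusted p = 5.58e-09). Ramp3, the other adrenomedullin partner, had 23.9, 17.02 and 21.8 CPM in Q150X endothelial cells and 0.541, 0.718 and 0.816 in Q150X cardiomyocytes (4.74 ± 0.30, adjusted p = 2.62e-10). For both genes the endothelial and cardiomyocyte ranges were far apart. Wild-type Ramp3 had 14.4, 22.9 and 26.7 CPM in endothelial cells and 0.933, 1.28 and 0.636 in cardiomyocytes (4.31 ± 0.30, adjusted p = 6.99e-10). Ramp2 shares 1103 exonic bases with Vps25 on the same strand (0 to 21 counts per library), and Ramp3 shares 101 with the antisense pseudogene Gm11978 (0 to 34 counts), so reads there could be counted for either gene.

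Ramp1, the CGRP partner, had values on the other side. It was 3.39, 4.31 and 2.49 CPM in Q150X endothelial cells and 3.25, 6.59 and 4.94 in Q150X cardiomyocytes (-0.71 ± 0.39, adjusted p = 0.11). Wild-type Ramp1 was 2.702, 2.63 and 2.99 CPM in endothelial cells and 6.36, 2.88 and 5.22 in cardiomyocytes (-0.97 ± 0.39, adjusted p = 0.0344). The ranges overlapped in both genotypes. The wild-type call was lost without wild-type endothelial library 1, 2 or 3 or wild-type cardiomyocyte library 1 or 3 (-1.03 to -0.72), and library size alone turned the value to 0.32, below that setting's median gene.

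Set against whole heart, endothelial cells had 5 members that differed in Q150X, against 63.2% of all genes, and 5 in wild type, against 61.1%. Aplnr, Calcrl, Ramp2 and Ramp3 were higher and Ramp1 lower in both. Calcrl had 212 ± 56.3 CPM in Q150X endothelial cells and 25.3 ± 13.1 in Q150X hearts (SD, n = 3 each; 2.93 ± 0.38, adjusted p = 3.04e-06), and 205 ± 19.2 and 27.7 ± 3.97 in the wild-type pair (2.73 ± 0.38, adjusted p = 6.81e-06). Ramp1 had 3.397 ± 0.911 CPM in Q150X endothelial cells and 8.29 ± 3.43 in Q150X hearts (-1.41 ± 0.39, adjusted p = 0.0042), and 2.77 ± 0.187 and 9.61 ± 5.29 in wild type (-1.94 ± 0.39, adjusted p = 0.000374). The Ramp1 mean of hearts was above that of both sorted fractions, and the highest heart value of each genotype was in library 1, one of the pair with atrial markers. Adm was above the heart range in every endothelial library, with 0.87 ± 0.42, adjusted p = 0.0755 in Q150X and 0.92 ± 0.42, adjusted p = 0.0653 in wild type. Without heart library 1 of the same genotype, in which Adm was highest (14.9 CPM in Q150X and 16.6 in wild type), the differences were 1.48, adjusted p = 0.00517 and 1.65, adjusted p = 0.00136.

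Per kilobase of exon, levels can be set side by side between genes. In Q150X endothelial cells Calcrl had 43.5 ± 11.5 CPM per kb, Ramp2 42.2 ± 11.2, Aplnr 26.9 ± 2.28, Ramp3 15.2 ± 2.56, Adm 10.7 ± 1.48, Apln 6.03 ± 2.82 and Ramp1 1.12 ± 0.302 (SD, n = 3). The wild-type order was the same, with 41.98 ± 3.94 for Calcrl, 36.5 ± 2.902 for Ramp2 and 0.918 ± 0.0619 for Ramp1. In Q150X the Calcrl and Ramp2 levels differed by less than their SD. Dividing the Ramp2 counts by the exons not shared with Vps25 gives 63.3 in Q150X and 54.9 in wild type, above the Calcrl means. In cardiomyocytes Apln had the highest level per kb, 5.76 ± 1.24 in Q150X and 5.62 ± 1.68 in wild type. Whole hearts held all but Ramp1 and Ramp3 at 5.17 to 9.59 CPM per kb over both genotypes. With the exons not shared with Vps25 Ramp2 was at 9.95 in Q150X and 11.6 in wild-type hearts, above Aplnr (9.59 ± 3.02 and 9.104 ± 1.34), so the order of these 2 genes in hearts depends on the exons counted.

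**Figure D1:**
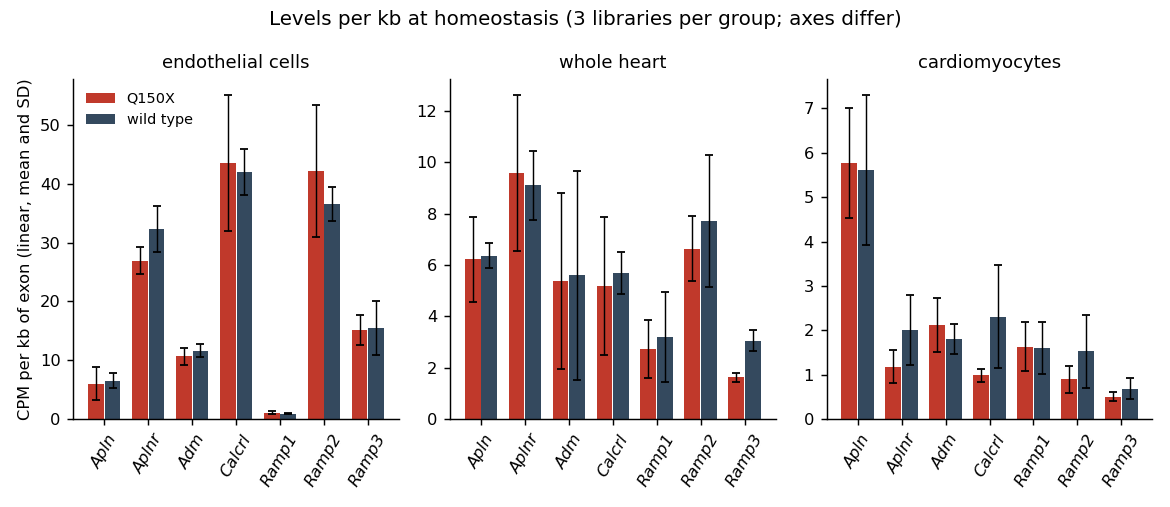
CPM per kb of exon (linear axes that differ between panels) of the 7 genes at homeostasis in endothelial cells, whole hearts and cardiomyocytes, with bars for the mean and lines for the SD of 3 libraries, Q150X left of wild type. Over all exons, as drawn, Calcrl and Ramp2 have the highest means in endothelial cells, Aplnr in hearts and Apln in cardiomyocytes; without the exons shared with Vps25, Ramp2 would lie above Calcrl in endothelial cells and above Aplnr in hearts.

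In whole hearts 7 days after MI, the RNA of the apelin ligand and its receptor was lower in both genotypes, Ramp2 was higher in both, and Adm and Calcrl did not pass the test in either. In Q150X hearts 2 members rose (Ramp2 and Ramp3) and 2 fell (Apln and Aplnr), so that 4 of 7 were called against 26% of all 17845 genes tested (13.8% higher and 12.3% lower). In wild-type hearts 1 rose (Ramp2) and 3 fell (Apln, Aplnr and Ramp1), against 13.7% of all genes (7.65% higher and 6.07% lower). By day 30, the only member past the test against homeostasis was Aplnr in Q150X hearts (1 of 7, against 29.7% of all genes, 15.6% higher and 14.2% lower); in wild-type hearts 0 of 7 passed in edgeR, 1 had an unadjusted p under 0.05 and DESeq2 called 1, Aplnr in both cases, against 8.93% of all genes (5.45% higher and 3.49% lower). The day 7 and day 30 comparisons share their homeostasis libraries. In bulk samples, fewer cells of a type and less RNA per cell cannot be told apart.

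Apln in Q150X hearts was 14.9, 25.2 and 18.7 CPM at homeostasis, 3.798, 0.961, 1.403 and 0.797 at day 7 and 6.59, 8.07, 10.1 and 5.88 at day 30. Wild-type hearts had 18.5, 21.5 and 20.2 CPM at homeostasis, 0.7302, 5.44, 0.722 and 0.962 at day 7 and 13.99, 5.39 and 9.67 at day 30. Every library of day 7 and day 30 lay below every homeostasis library of its genotype. The day 30 libraries of Q150X lay above all those of day 7, and in wild type the lowest of day 30 was just below library 2 of day 7, the highest of that group. The day 7 change was -3.48 ± 0.62, adjusted p = 0.000595 in Q150X and -3.36 ± 0.61, adjusted p = 0.00155 in wild type, fitted values 11.2-fold and 10.2-fold lower. Both calls were kept under each of the 14 alternatives run. At day 30 the change was -1.36 ± 0.57, adjusted p = 0.082 in Q150X and -1.06 ± 0.62, adjusted p = 0.276 in wild type. Between day 7 and day 30 Apln rose by 2.12 ± 0.57, adjusted p = 0.00999 in Q150X, kept in each alternative, and by 2.3 ± 0.60, adjusted p = 0.00902 in wild type, where the fit of these 2 groups alone gave 2.3, adjusted p = 0.0648. Without Q150X library 1 of day 7, the highest of its group, the day 7 change was -4.21 and the later rise 2.85, and without wild-type library 2 of day 7 they were -4.63 and 3.58.

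Aplnr in Q150X hearts was 27.1, 48.2 and 31.2 CPM at homeostasis, 18.1, 3.62, 10.9 and 7.11 at day 7 and 12.2, 13.3, 15.2 and 20.1 at day 30. In wild-type hearts it was 37.2, 28.04 and 35.7 CPM at homeostasis, 9.78, 22.5, 5.06 and 5.97 at day 7 and 11.2, 11.5 and 11 at day 30. All MI libraries lay below all homeostasis libraries of their genotype at both times, and library 1 of Q150X and library 2 of wild type were again the highest of day 7. The day 7 change was -1.84 ± 0.45, adjusted p = 0.00632 in Q150X, kept in each alternative, and -1.64 ± 0.45, adjusted p = 0.0221 in wild type. The wild-type call was lost without homeostasis library 1 or 3 or day 7 library 1, 3 or 4 (-1.60 to -1.41), and the value was -2.28 without day 7 library 2. At day 30 the change was -1.23 ± 0.45, adjusted p = 0.0467 in Q150X and -1.59 ± 0.50, adjusted p = 0.0521 in wild type. The Q150X call was lost without homeostasis library 2 (-0.94) or 3 (-1.31) or day 30 library 1, 2 or 3. Between day 7 and day 30 Aplnr did not pass in either genotype (0.61 ± 0.42, adjusted p = 0.278 in Q150X and 0.05 ± 0.46, adjusted p = 0.943 in wild type).

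**Figure D2:**
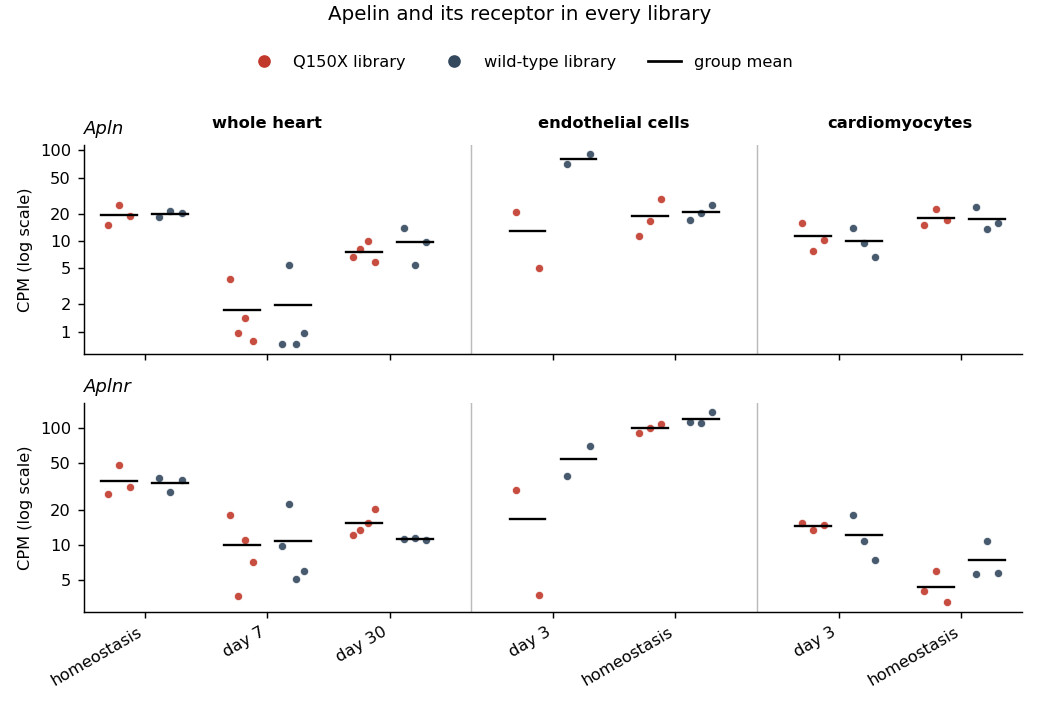
CPM (log axis) of Apln and Aplnr in each of the 43 libraries by compartment, time and genotype, Q150X left of wild type at each time, with a bar at each group mean. In hearts the group means of both genes are lowest at day 7, and in endothelial cells of day 3 the wild-type Apln values (70.4 and 90.7) stand above all others.

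Adm in Q150X hearts was 14.9, 6.93 and 4.27 CPM at homeostasis, 6.81, 5.37, 8.54 and 5.23 at day 7 and 9.49, 16.3, 15.01 and 11.6 at day 30. Wild-type hearts had 16.6, 6.14 and 4.44 CPM at homeostasis, 6.78, 5.59, 6.59 and 10.2 at day 7 and 18.6, 10.4 and 20.01 at day 30. Homeostasis library 1 of each genotype, with its atrial markers, had over 2 times the Adm of the other 2, and the homeostasis range overlapped both later times. Day 7 did not pass (-0.42 ± 0.41, adjusted p = 0.479 in Q150X and -0.31 ± 0.41, adjusted p = 0.664 in wild type), nor did day 30 (0.59 ± 0.42, adjusted p = 0.3 and 0.85 ± 0.44, adjusted p = 0.219 in the same order). Without homeostasis library 1, day 30 was 1.22, adjusted p = 0.0382 in Q150X and 1.62, adjusted p = 0.0145 in wild type. Day 30 over day 7, which uses no homeostasis library, was 1.02 ± 0.39, adjusted p = 0.0512 in Q150X and 1.16 ± 0.41, adjusted p = 0.039 in wild type, with no overlap of the groups in either. The wild-type call was lost without day 7 library 1, 2 or 3 or day 30 library 1 or 3 (0.99 to 1.12), and the Q150X value passed without day 30 library 1 (1.14, adjusted p = 0.0481).

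Calcrl in Q150X hearts was 10.6, 36 and 29.2 CPM at homeostasis, 33.99, 31.1, 34.2 and 30.02 at day 7 and 20.3, 20.1, 32.3 and 36.5 at day 30. In wild-type hearts it was 23.6, 27.97 and 31.6 CPM at homeostasis, 30.9, 38.5, 29.6 and 29.99 at day 7 and 20.5, 24.8 and 22.01 at day 30. The ranges of homeostasis and MI overlapped at both times in both genotypes, and Q150X homeostasis library 1 was the lowest of the 21 hearts. None of the 6 time comparisons of Calcrl passed; the day 7 changes were 0.35 ± 0.28, adjusted p = 0.382 in Q150X and 0.21 ± 0.28, adjusted p = 0.658 in wild type.

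Ramp2 in Q150X hearts was 26.6, 20.3 and 18.7 CPM at homeostasis, 36.3, 40.9, 50.4 and 47.4 at day 7 and 19.5, 26.97, 23.9 and 26.9 at day 30. Wild-type values were 35.3, 20.5 and 20.7 CPM at homeostasis, 40.4, 31.6, 40.6 and 42.01 at day 7 and 23.1, 29.7 and 32.8 at day 30. In Q150X all day 7 values lay above all values of the other times, and the rise at day 7 (1.0 ± 0.20, adjusted p = 0.00126) and the later fall between day 7 and day 30 (-0.85 ± 0.18, adjusted p = 0.00176) were kept in each alternative. In wild type the groups overlapped at day 7 and the rise was smaller (0.60 ± 0.20, adjusted p = 0.0471); it was lost without homeostasis library 2 or 3 or day 7 library 1, 3 or 4 (0.47 to 0.57), and with the size factors of DESeq2, no filter, these groups alone or the replicate block (0.55 to 0.57). The difference between the genotypes' day 7 changes was 0.40 ± 0.27, adjusted p = 1.

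Ramp3 in Q150X hearts was 2.24, 2.47 and 2.02 CPM at homeostasis, 3.11, 3.73, 4.01 and 3.76 at day 7 and 2.58, 2.89, 2.92 and 3.896 at day 30. The wild-type hearts had 4.697, 4.41 and 3.57 CPM at homeostasis, 3.39, 3.32, 4.85 and 2.72 at day 7 and 3.84, 4.59 and 5.76 at day 30. The Q150X homeostasis values were the lowest 3 of the 21 hearts. Ramp3 rose at day 7 in Q150X hearts (0.70 ± 0.23, adjusted p = 0.0282), a call lost without homeostasis library 1 or 3 or day 7 library 2, 3 or 4 (0.63 to 0.69), and the wild-type value was -0.25 ± 0.22, adjusted p = 0.492. The difference of these changes had an unadjusted p under 0.05 and did not pass over all genes (0.94 ± 0.31, adjusted p = 1).

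Ramp1 in Q150X hearts was 12.2, 6.19 and 6.42 CPM at homeostasis, 5.73, 4.38, 5.09 and 4.37 at day 7 and 6.27, 8.14, 9.51 and 7.69 at day 30. In wild-type hearts it was 15.6, 7.42 and 5.77 CPM at homeostasis, 3.97, 4.87, 4.31 and 4.64 at day 7 and 7.03, 9.07 and 9.78 at day 30. All day 7 values lay below homeostasis and below day 30 of their genotype. The day 7 difference did not pass in Q150X (-0.76 ± 0.28, adjusted p = 0.0506) and passed in wild type (-1.11 ± 0.28, adjusted p = 0.0122); their difference was 0.35 ± 0.40, adjusted p = 1. Without Q150X homeostasis library 2 or 3 the Q150X value passed (-0.93 and -0.91), and without wild-type homeostasis library 1, where Ramp1 was highest, the wild-type call was lost (-0.57, adjusted p = 0.134). It was also lost without all the libraries that stood apart (-0.59, adjusted p = 0.0503). Between day 7 and day 30 Ramp1 rose in both genotypes (0.69 ± 0.26, adjusted p = 0.0499 in Q150X and 0.95 ± 0.28, adjusted p = 0.0158 in wild type). The Q150X rise was lost without any 1 of its 8 libraries except day 30 library 1 (0.60 to 0.77), and the wild-type rise without day 30 library 3 (0.86).

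Day 30 over day 7 thus gave 3 called members in Q150X hearts (Apln and Ramp1 up, Ramp2 down), against 31.4% of all genes (14.9% higher and 16.5% lower), and 3 in wild-type hearts (Apln, Adm and Ramp1 up), against 30% (13.9% higher and 16.1% lower). Cell markers also differed over the same times. The 11 endothelial markers summed to 1051 to 1149 CPM in Q150X and 1111 to 1258 in wild-type hearts at day 7, against 757 to 1436 and 1372 to 1513 CPM at homeostasis. The 5 capillary markers were at 3626 to 4413 CPM in Q150X and 3900 to 4174 in wild-type hearts at day 7, above the 1350 to 2428 and 1581 to 2585 CPM of homeostasis. The endothelial sum of wild-type hearts thus lay below its homeostasis range at day 7 and the capillary sums of both genotypes above theirs. In cardiomyocytes at homeostasis the capillary list summed to 1954 to 2344 CPM in Q150X and 2313 to 2900 in wild type. That list is thus not particular to capillary cells in these libraries. The 8 cardiomyocyte markers were at 32950 to 38330 CPM in Q150X and 34740 to 43640 in wild-type hearts at day 7, below the 52410 to 74140 and 45640 to 58700 CPM of homeostasis, in the same hearts in which Apln fell. The 6 fibroblast markers were at 2417 to 4446 CPM in Q150X and 1560 to 3749 in wild-type hearts at day 7, against 649.5 to 1293 and 713 to 1484 CPM. At day 30 the cardiomyocyte sums were 27810 to 41220 CPM in Q150X and 44320 to 49930 in wild type, the capillary sums 1200 to 1442 and 1344 to 1516, the endothelial sums 673 to 1017 and 894 to 1014, and the fibroblast sums 3372 to 5338 and 1630 to 3158 in the same order. The capillary sums of day 30 thus lay below those of day 7 in both genotypes, and the wild-type cardiomyocyte sums above theirs. The part of these markers in the results was not tested.

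**Figure D3:**
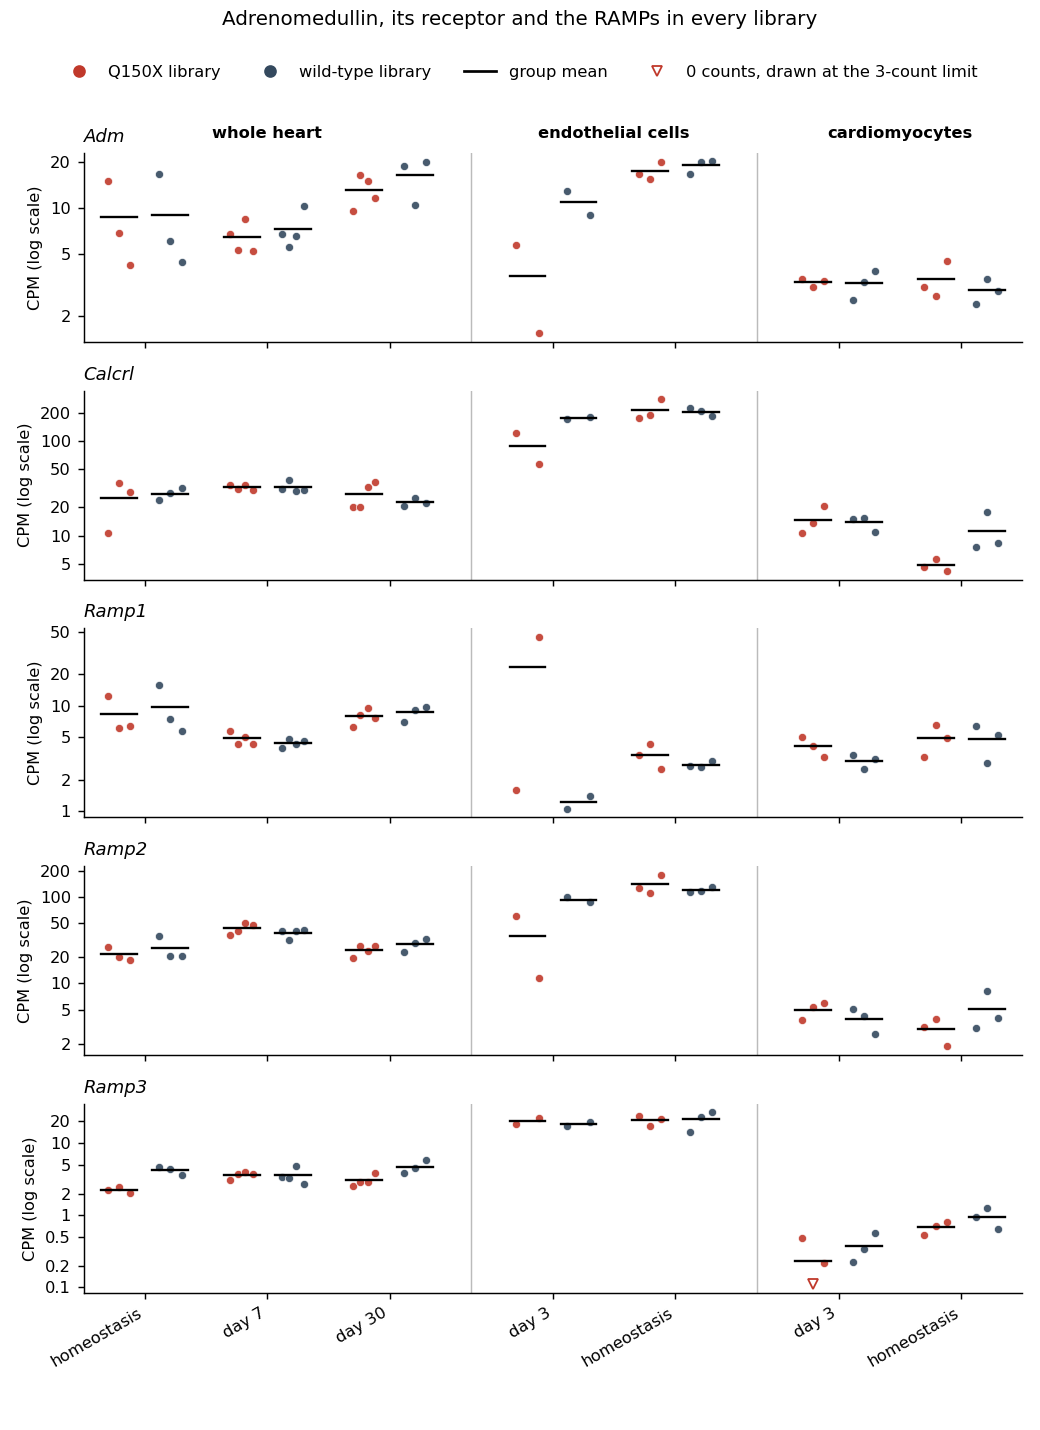
CPM (log axis) of Adm, Calcrl, Ramp1, Ramp2 and Ramp3 in each library by compartment, time and genotype, Q150X left of wild type at each time, with a bar at each group mean and an open triangle at the limit of 3 counts for the library with 0. The highest Ramp1 value of all, 44.8 CPM, is the Q150X endothelial library 2 of day 3.

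In endothelial cells 3 days after MI, the Q150X libraries had less Aplnr, Adm and Calcrl RNA than at homeostasis, and in wild type the largest change was a higher Apln that did not pass the test. In Q150X 3 of 7 members fell and 0 rose, against 33.8% of all 18223 genes tested (18.7% higher and 15.1% lower). The 3 of 7 called are near the 33.8% of all genes called, so the count is no result about the members. DESeq2 called 5, and the count moved over the alternatives. In wild type 0 of 7 passed in edgeR, 1 had an unadjusted p under 0.05 and DESeq2 called 1, Apln in both cases, against 9.52% of all genes (6.71% higher and 2.81% lower). Each day 3 group has 2 libraries, and the 2 Q150X libraries were far apart for Apln, Aplnr, Adm, Ramp1 and Ramp2.

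Apln was 20.8 and 4.99 CPM in Q150X endothelial cells of day 3, against 11.4, 16.8 and 28.8 at homeostasis (-0.44 ± 0.60, adjusted p = 0.6). In wild type it was 70.4 and 90.7 CPM at day 3, against 17.05, 20.2 and 24.7 at homeostasis (2.13 ± 0.59, adjusted p = 0.0592). The wild-type groups did not overlap, and DESeq2 called the rise (2.1, adjusted p = 0.00551). The Q150X library 1 lay inside its homeostasis range and library 2 below it. Without library 1, which leaves 1 library in the group, the Q150X change was -2.04. Apln is an X-linked gene, and the day 3 libraries differ from homeostasis in Xist as given above.

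Aplnr was 29.5 and 3.71 CPM in Q150X endothelial cells of day 3, against 91.02, 99.6 and 108 at homeostasis (-2.45 ± 0.77, adjusted p = 0.0401). Wild-type Aplnr was 38.8 and 69.8 CPM, against 112, 110.4 and 136 (-0.97 ± 0.72, adjusted p = 0.444). The groups were apart in both genotypes. Without Q150X library 2 of day 3, which carries the lymphoid markers, the Q150X fall was -1.62, and without library 1 it was -4.86. Each of these fits leaves 1 library in the group, so their calls are not counted. The Q150X call was lost without any 1 homeostasis library (-2.48 to -2.40).

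Adm was 5.73 and 1.54 CPM in Q150X endothelial cells of day 3, against 16.6, 15.3 and 19.98 at homeostasis (-2.15 ± 0.54, adjusted p = 0.018). In wild type it was 12.9 and 8.97 CPM, against 16.7, 19.9 and 20.1 (-0.62 ± 0.50, adjusted p = 0.482). Adm was lower than every homeostasis library in all 4 libraries of day 3. The Q150X fall was -1.46 without day 3 library 2 and -3.61 without library 1, with 1 library left in the group each time. Its call was lost where the 2 groups were fitted alone (-2.11, adjusted p = 0.116).

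Calcrl was 122 and 56.5 CPM in Q150X endothelial cells of day 3, against 174, 186 and 277 at homeostasis (-1.16 ± 0.38, adjusted p = 0.0469). The wild-type libraries had 169.7 and 180.1 CPM, against 222, 208 and 184 (-0.06 ± 0.37, adjusted p = 0.937). The Q150X call was lost without any 1 homeostasis library (-1.25 to -0.93), and without day 3 library 1 the value was -2.02. Ramp2 was 59.8 and 11.4 CPM in Q150X at day 3, against 126, 110.3 and 181 at homeostasis (-1.84 ± 0.63, adjusted p = 0.0525). The Ramp2 value was -3.72 without day 3 library 1 and -1.08 without library 2, with 1 library left in the group each time. In wild type Ramp2 was 99.2 and 87.2 CPM, against 114, 116 and 132 (-0.21 ± 0.59, adjusted p = 0.866). The Q150X groups did not overlap for receptor or partner, and both were lowest in library 2 of day 3.

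For the other 2 partners no change passed. Ramp3 was 18.5 and 22.2 CPM in Q150X at day 3, against 23.9, 17.02 and 21.8 at homeostasis (-0.01 ± 0.27, adjusted p = 0.988), with overlap, and 17.3 and 19.3 against 14.4, 22.9 and 26.7 in wild type (-0.06 ± 0.27, adjusted p = 0.919). Ramp1 was 1.58 and 44.8 CPM in Q150X at day 3, against 3.39, 4.31 and 2.49 (2.7 ± 0.91, adjusted p = 0.0505). The high Ramp1 value is that of library 2 alone, and library 1 lay below all 3 homeostasis values. In wild type Ramp1 was 1.06 and 1.402 CPM, against 2.702, 2.63 and 2.99 (-1.01 ± 0.96, adjusted p = 0.565).

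Cell markers also differed between day 3 and homeostasis. The 11 endothelial markers summed to 780 to 3573 CPM in Q150X and 5153 to 5337 in wild type at day 3, against 8752 to 10360 and 9241 to 10490 CPM at homeostasis. The 10 leukocyte markers were at 1964 to 2639 CPM in Q150X and 1175 to 1246 in wild type at day 3, against 37.5 to 66.4 and 54.6 to 61.4 CPM. The 8 smooth muscle and pericyte markers were at 138 to 690 CPM in Q150X and 1423 to 1480 in wild type at day 3, against 3570.0 to 4167 and 2876 to 3995 CPM. The 5 markers of sprouting tip cells, in which Apln is known to be expressed in the mouse retina, were at 244 to 283 CPM in Q150X and 251 to 258 in wild type at day 3, against 339 to 353 CPM in Q150X and 332 to 355 in wild type at homeostasis. Within this list Esm1 was at 1.69 to 3.08 CPM in Q150X and 6.76 to 8.99 in wild type at day 3. At homeostasis Esm1 was at 11.3 to 17.75 CPM in Q150X and 12.45 to 14.5 in wild type. Angpt2 was at 2.53 to 18.3 and 32.3 to 33.0 CPM at day 3, against 28.9 to 31.0 and 30.6 to 35.6 CPM at homeostasis, in the same order. The similar sums thus do not show that single tip genes were alike in the genotypes. The part of any of these markers in the members' changes was not tested.

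In cardiomyocytes 3 days after MI, the receptor genes Aplnr and Calcrl rose in Q150X, and the apelin ligand had lower values in both genotypes that did not pass. In Q150X 2 of 7 members rose and 0 fell, against 27% of all 15169 genes tested (14.9% higher and 12.1% lower). In wild type 0 of 7 passed in edgeR, 2 had an unadjusted p under 0.05 and DESeq2 called 1 (Apln), against 17.4% of all genes (10.1% higher and 7.22% lower).

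Aplnr was 15.2, 13.4 and 14.7 CPM in Q150X cardiomyocytes of day 3, against 4.004, 5.92 and 3.22 at homeostasis (1.6 ± 0.34, adjusted p = 0.00341). The wild-type values were 18.1, 10.8 and 7.402 CPM, against 5.66, 10.8 and 5.77 (0.62 ± 0.32, adjusted p = 0.215). The Q150X groups were far apart and the wild-type groups overlapped. Calcrl was 10.5, 13.5 and 20.3 CPM in Q150X at day 3, against 4.71, 5.61 and 4.22 (1.49 ± 0.32, adjusted p = 0.00377), and 14.9, 15.4 and 11 in wild type, against 7.58, 17.8 and 8.401 (0.20 ± 0.30, adjusted p = 0.704). Both Q150X calls were kept under each alternative. The difference of the genotypes' changes did not pass for either gene (0.99 ± 0.46, adjusted p = 0.642 for Aplnr and 1.29 ± 0.44, adjusted p = 0.569 for Calcrl). The fitted folds in Q150X were 3.04 for Aplnr and 2.81 for Calcrl. The endothelial markers also differed: their sum was 329 to 404 CPM at day 3 against 199 to 316 CPM at homeostasis in Q150X, and 288 to 352 against 299 to 708 CPM in wild type. The 6 fibroblast markers were at 555 to 1016 CPM in Q150X and 462 to 817 in wild type at day 3, against 20.4 to 61.4 and 47.3 to 104 CPM at homeostasis. The 5 vein and endocardium markers were at 33.4 to 53.8 CPM in Q150X and 25.9 to 46.9 in wild type at day 3, against 12.3 to 16.8 and 11.8 to 19.7 CPM. The 10 leukocyte markers were at 50.1 to 112 CPM in Q150X and 42.1 to 76.3 in wild type at day 3, against 2.27 to 3.26 and 3.68 to 7.31 CPM at homeostasis, where up to 7 of the 10 were at 0. These 3 lists were higher at day 3 without overlap in both genotypes, and the part of the markers in the Aplnr and Calcrl rises was not tested.

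Apln was 15.8, 7.82 and 10.3 CPM in Q150X cardiomyocytes of day 3, against 14.9, 22.5 and 17.04 at homeostasis (-0.79 ± 0.31, adjusted p = 0.0812). In wild type it was 13.8, 9.601 and 6.61 CPM, against 23.6, 13.4 and 15.98 (-0.92 ± 0.32, adjusted p = 0.0654). The lowest homeostasis value of each genotype lay below its highest day 3 value, so the groups overlapped. Without day 3 library 1, the highest of each group, the changes passed (-1.1 in Q150X and -1.22 in wild type).

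Adm values in cardiomyocytes lay close together, with 3.47, 3.06 and 3.36 CPM in Q150X at day 3 against 3.08, 2.69 and 4.56 (-0.18 ± 0.27, adjusted p = 0.671), and 2.51, 3.32 and 3.9 in wild type against 2.39, 3.47 and 2.91 (0.06 ± 0.28, adjusted p = 0.915). All 12 values lay between 2.39 and 4.56 CPM. Ramp2 was 3.77, 5.31 and 5.92 CPM in Q150X at day 3, against 3.14, 3.86 and 1.87 (0.64 ± 0.37, adjusted p = 0.22), and 5.03, 4.17 and 2.61 in wild type, against 3.03, 8.11 and 3.996 (-0.45 ± 0.36, adjusted p = 0.428). Ramp1 was 5.03, 4.17 and 3.25 CPM in Q150X at day 3, against 3.25, 6.59 and 4.94 (-0.36 ± 0.31, adjusted p = 0.423), and 3.402, 2.51 and 3.11 in wild type, against 6.36, 2.88 and 5.22 (-0.77 ± 0.31, adjusted p = 0.103). Its groups overlapped in both genotypes, and without wild-type homeostasis library 2 the wild-type change passed (-1.04). Ramp3 was the scarcest member, with 0 counts in Q150X library 2 of day 3, which allows up to 0.111 CPM by a limit of 3 counts. Its other day 3 values were 0.4803 and 0.217 CPM in Q150X and 0.222, 0.339 and 0.562 in wild type, below their homeostasis values (0.541, 0.718 and 0.816 CPM in Q150X and 0.933, 1.28 and 0.636 CPM in wild type); neither change passed (adjusted p = 0.122 in Q150X and 0.197 in wild type), though the Q150X one did without day 3 library 1 (adjusted p = 0.0381).

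Between the genotypes, 0 of 49 member tests passed in edgeR (7 members in 7 pairs of groups). Of all genes, edgeR called 0% in 6 of the 7 comparisons and 0.443% (0.151% higher and 0.291% lower) in hearts of day 30. An unadjusted p under 0.05 was found for 7 member tests, of which 4 were in endothelial cells of day 3. DESeq2 called 4, of which 3 were in those cells. Shares of all genes by unadjusted p or by DESeq2 are not given. The 4 interactions with MI gave 0 of 28 in edgeR, against 0% of all genes in each. In these interactions 4 member tests had an unadjusted p under 0.05 and DESeq2 called 0. Those 4 were Ramp3 in hearts at day 7 (0.94 ± 0.31), Apln (-2.57 ± 0.86) and Ramp1 (3.71 ± 1.35) in endothelial cells and Calcrl in cardiomyocytes (1.29 ± 0.44), each Q150X minus wild type. Leaving out an endothelial library of day 3 leaves 1 library in its group, so interaction calls from such fits are not counted. A p that misses the threshold does not show that the genotypes are alike.

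The smallest unadjusted genotype p in hearts was that of Ramp3, which had 2.24, 2.47 and 2.02 CPM in Q150X and 4.697, 4.41 and 3.57 in wild type at homeostasis (-0.91 ± 0.24, adjusted p = 1). All Q150X values were below all wild-type values. At day 30 the values were 2.58, 2.89, 2.92 and 3.896 in Q150X and 3.84, 4.59 and 5.76 in wild type, overlapping in 1 library (-0.62 ± 0.22, adjusted p = 0.208). At day 7 they were mixed (0.03 ± 0.20, adjusted p = 1), and in endothelial cells at homeostasis, where Ramp3 is highest, the difference was -0.03 ± 0.24, adjusted p = 1.

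In cardiomyocytes at homeostasis Calcrl was 4.71, 5.61 and 4.22 CPM in Q150X and 7.58, 17.8 and 8.401 in wild type (-1.18 ± 0.32, adjusted p = 0.184), with no overlap; DESeq2 called it (-1.19, adjusted p = 0.0189). The endothelial marker sums of these libraries, 199 to 316 CPM in Q150X and 299 to 708 in wild type, were lower in the same direction, and their part was not tested. Aplnr (-0.72 ± 0.34), Ramp2 (-0.74 ± 0.37) and Ramp3 (-0.42 ± 0.71), the other receptor-side genes high in endothelium, had values on the same side that did not pass. Adm, the ligand gene also higher in endothelial cells, had a value on the other side (0.27 ± 0.28) that did not pass.

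In endothelial cells of day 3 the genotypes differed most in value, with Apln at -2.69 ± 0.69, Aplnr at -1.75 ± 0.79, Adm at -1.65 ± 0.56, Calcrl at -1.04 ± 0.41, Ramp2 at -1.43 ± 0.66, Ramp3 at 0.02 ± 0.29 and Ramp1 at 4.0 ± 1.13 (adjusted p = 0.143 or more for each). The Q150X and wild-type values overlapped for Ramp3 and not for the other members, with 2 libraries in each group. The share of all genes without such overlap is not given, so the separation is no result about the members. DESeq2 called Apln (-2.65, adjusted p = 0.00283), Adm (-1.61, adjusted p = 0.0418) and Ramp1 (4.07, adjusted p = 0.00143). The size of these differences depends on which Q150X library is kept. Without library 1, which leaves the library with lymphoid markers alone, they were -4.3 for Apln, -4.16 for Aplnr and 4.9 for Ramp1. Without library 2, which leaves library 1 alone, the Adm difference was -0.96. With 1 library in a group, calls are not counted.

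**Figure D4:**
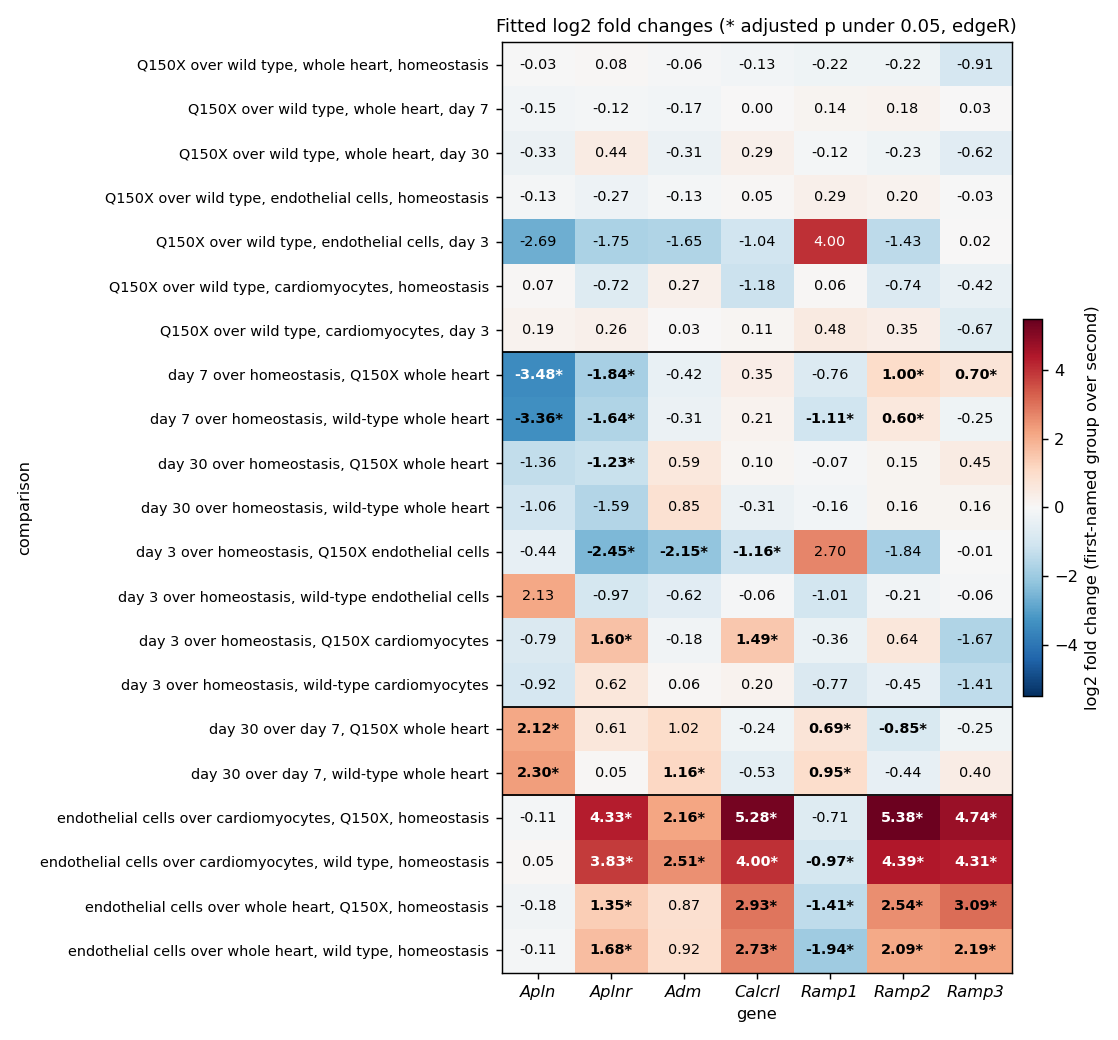
Fitted log2 fold changes of the 7 genes (columns) in the genotype, MI, day 30 over day 7 and compartment comparisons (rows, first-named group over the second), with colour for the value and an asterisk where the adjusted p is under 0.05. Asterisks stand for Apln and Aplnr in hearts at day 7 in both genotypes, and none stands in a Q150X over wild type row.

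Over the 14 groups, the ratio of the highest to the lowest group mean was 91.8 for Ramp3, 47.1 for Ramp2, 46.3 for Apln, 43.8 for Calcrl, 27.3 for Aplnr, 18.8 for Ramp1 and 6.46 for Adm. The Ramp1 ratio rested on library 2 of the Q150X endothelial cells of day 3 (44.8 CPM, against 1.58 in library 1), and without that library it was 7.81; this alternative was chosen after seeing the data. Apln had its highest mean in wild-type endothelial cells of day 3 (80.5 ± 14.4 CPM, SD, n = 2) and its lowest in Q150X hearts of day 7 (1.74 ± 1.396, n = 4). Aplnr had its highest in wild-type endothelial cells at homeostasis (119.5 ± 14.7) and its lowest in Q150X cardiomyocytes at homeostasis (4.38 ± 1.39). Most neighbours in these orders did not differ beyond their spread: of 13 neighbouring pairs of groups, the ranges overlapped in 11 for Apln and Aplnr, 13 for Adm, 8 for Calcrl, 12 for Ramp1 and 10 for Ramp2 and Ramp3. Adm is thus the member whose level separates the groups least.

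Across the 14 group means of log2 CPM, Pearson's r was 0.912 for Calcrl with Ramp2, 0.898 for Ramp2 with Ramp3, 0.879 for Calcrl with Ramp3 and 0.504 for Apln with Aplnr. Across the 21 heart libraries it was 0.846 for Apln with Aplnr and -0.84 for Apln with Ramp2. The points share compartments and MI times, so these values describe the layout of the samples. By the same measure over the 14 group means, the genes most like each member were Icmt (0.937), Xxylt1 (0.916) and Lman2 (0.913) for Apln, Lama4 (0.953), Sema6d (0.946) and Mest (0.946) for Aplnr, Mpp2 (0.962), Rtl8c (0.960) and Mras (0.959) for Adm, Elk3 (0.992), Srgap2 (0.992) and Mertk (0.991) for Calcrl, Emg1 (0.910), Tmub1 (0.891) and Rpp21 (0.880) for Ramp1, Tead2 (0.996), Ly6c1 (0.995) and Trpv4 (0.992) for Ramp2 and Tmc8 (0.983), Pxn (0.975) and Stim1 (0.973) for Ramp3. Over the 21 hearts they were Tspan12 (0.950), Klhdc8a (0.945) and Mfap3l (0.944) for Apln, Dok4 (0.903), Tspan12 (0.900) and Dchs1 (0.880) for Aplnr, Cd82 (0.895), Naxe (0.883) and Foxp4 (0.882) for Adm, Prrg3 (0.907), Cep170 (0.883) and Fmnl2 (0.880) for Calcrl, Fam20c (0.931), Tpcn1 (0.928) and Abhd8 (0.917) for Ramp1, Mylip (0.950), Ggt5 (0.925) and Whamm (0.915) for Ramp2 and Fosl2 (0.788), Tbc1d25 (0.759) and Irf2bp2 (0.752) for Ramp3. Tspan12 was thus near both Apln and Aplnr in hearts.

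Of 14 related ligands, receptors, processing enzymes and clearance genes, 10 were tested in hearts; Iapp had 0 counts in every library, and the second apelin-receptor ligand Apela (at most 6 counts), Adm2 (at most 8) and Calcr (at most 20) were nearly absent. At day 7, 1 of the 10 rose in Q150X and 0 in wild type, with 0 falls, and at day 30, 4 rose in Q150X and 1 in wild type, with 0 falls. Over all genes the shares were 13.8% higher and 12.3% lower in Q150X and 7.65% higher and 6.07% lower in wild type at day 7, and 15.6% higher and 14.2% lower in Q150X and 5.45% higher and 3.49% lower in wild type at day 30. The list's medians at day 30 were 0.11 in Q150X and 0.12 in wild type, beside -0.03 and -0.02 for all genes.

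In endothelial cells of day 3, the CGRP gene Calca was detected in all 4 libraries, with 0.731 to 2.02 CPM in Q150X and 1.41 to 1.52 in wild type (39 to 73 and 73 to 79 counts). At homeostasis it had 0 to 0.0336 and 0.0356 to 0.0609 CPM in the same order (0 to 2 and 2 to 3 counts), too few for a fold, and the rise passed in both genotypes (adjusted p = 0.00137 in Q150X and 0.00392 in wild type). Of the 9 related genes tested there, 1 rose and 3 fell in Q150X and 1 rose and 0 fell in wild type, with over all genes 18.7% higher and 15.1% lower in Q150X and 6.71% higher and 2.81% lower in wild type. In cardiomyocytes of day 3, Ackr3, an atypical receptor that takes up adrenomedullin as well as chemokines, fell in both genotypes (-0.91 ± 0.11, adjusted p = 5.05e-05 in Q150X and -0.95 ± 0.11, adjusted p = 5.94e-05 in wild type). It was 48.9 to 59.2 CPM in Q150X and 46.5 to 55.4 in wild type at day 3, against 85.97 to 100.2 and 88.9 to 96.6 CPM at homeostasis. Of the 8 related genes tested in cardiomyocytes, 1 rose and 2 fell in each genotype, with over all genes 14.9% higher and 12.1% lower in Q150X and 10.1% higher and 7.22% lower in wild type.

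Of 22 genes that carry signals behind these receptors (G proteins, arrestins, receptor kinases, adenylyl cyclases and downstream factors), all were tested. In hearts of day 7, 4 rose and 5 fell in Q150X and 2 rose and 2 fell in wild type (medians 0.02 and -0.07, beside 0.06 and 0.05 for all genes); library size alone gave 8 and 2 in Q150X. As shares of the 22 these stand beside 13.8% higher and 12.3% lower of all genes in Q150X and 7.65% higher and 6.07% lower in wild type. Mef2c, a muscle and vessel transcription factor, fell in both genotypes (-0.66 ± 0.14, adjusted p = 0.00163 in Q150X and -0.61 ± 0.14, adjusted p = 0.00564 in wild type). In endothelial cells of day 3, 3 rose and 12 fell in Q150X and 1 rose and 1 fell in wild type (medians -0.97 and -0.34, beside 0.07 and 0.01), with the shares over all genes being 18.7% higher and 15.1% lower in Q150X and 6.71% higher and 2.81% lower in wild type. In cardiomyocytes of day 3, 8 rose and 3 fell in Q150X and 3 rose and 3 fell in wild type (medians 0.17 and -0.30, beside 0.00 and -0.01), and library size alone gave 9 and 0 in Q150X and 8 and 0 in wild type; of all genes 14.9% were higher and 12.1% lower in Q150X and 10.1% and 7.22% in wild type.

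Arrb2, the arrestin that ends and reroutes signalling of such receptors, rose in endothelial cells of day 3 (2.71 ± 0.18, adjusted p = 6.79e-05 in Q150X and 2.07 ± 0.18, adjusted p = 0.00055 in wild type) and in cardiomyocytes of day 3 (2.43 ± 0.38, adjusted p = 0.000322 and 1.85 ± 0.37, adjusted p = 0.00342 in the same order). In Q150X hearts it rose at day 7 (1.06 ± 0.24, adjusted p = 0.00356) and day 30 (1.44 ± 0.25, adjusted p = 0.000411). Its wild-type heart values are not given here, so the rise in hearts is not shown to be particular to Q150X. Leukocytes also express Arrb2, and the leukocyte markers were higher in the sorted fractions of day 3 in both genotypes, as given above. In Q150X hearts these markers were at 44.1 to 90.9 CPM at homeostasis, 90.03 to 218 at day 7 and 159.5 to 264 at day 30. In wild-type hearts they were at 55.9 to 104.6, 61.7 to 112.5 and 156 to 214.7 CPM at the same times. The part of these markers was not tested. Gnai2, an inhibitory G protein used by Aplnr among many receptors, rose in cardiomyocytes of day 3 (0.90 ± 0.09, adjusted p = 1.74e-05 in Q150X and 0.78 ± 0.09, adjusted p = 6.38e-05 in wild type).

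The 16 hypoxia-responsive genes held both rises and falls. In hearts of day 7, 4 rose and 5 fell in Q150X and 2 rose and 3 fell in wild type (medians 0.07 and 0.11, beside 0.06 and 0.05 for all genes), where all genes gave 13.8% higher and 12.3% lower in Q150X and 7.65% higher and 6.07% lower in wild type. Bnip3, a mitophagy receptor, rose in both (1.84 ± 0.19, adjusted p = 3.13e-06 in Q150X and 2.1 ± 0.19, adjusted p = 2.70e-06 in wild type), while Egln3, an oxygen-sensing prolyl hydroxylase (-1.79 ± 0.29, adjusted p = 0.000235 and -1.43 ± 0.29, adjusted p = 0.00272), and the hexokinase Hk2 (-1.59 ± 0.21, adjusted p = 2.71e-05 and -1.27 ± 0.20, adjusted p = 0.000464) fell in both. Egln3 and Hk2 thus fell in the hearts in which Apln fell, and Adm did not pass. In endothelial cells of day 3, 5 of the 16 rose and 0 fell in Q150X and 3 rose and 0 fell in wild type (medians -0.07 and 0.80, beside 0.07 and 0.01); with library size alone it was 6 and 3 in Q150X and 5 and 1 in wild type. The shares of all genes there were 18.7% higher and 15.1% lower in Q150X and 6.71% higher and 2.81% lower in wild type. Egln3 rose there (1.67 ± 0.32, adjusted p = 0.00634 in Q150X and 1.87 ± 0.32, adjusted p = 0.0092 in wild type). The wild-type call was lost without day 3 library 1 (1.74) or 2 (1.98), each of which leaves 1 library in the group. In cardiomyocytes of day 3, 4 rose and 4 fell in Q150X and 2 rose and 1 fell in wild type, beside 14.9% higher and 12.1% lower of all genes in Q150X and 10.1% higher and 7.22% lower in wild type. Between the genotypes 1 gene of the 3 related lists passed in any comparison, Pfkfb3, a regulator of glycolysis, in hearts of day 30 (-3.16 ± 0.54, adjusted p = 0.018). It was 9.11 to 28.2 CPM in Q150X and 29.1 to 213 in wild type, and the call was lost without Q150X library 1 or 3 or wild-type library 1 or 3 (-3.07 to -2.79). Fits of these groups alone and with the replicate block also lost the call.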

How the data were processed

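The deposited table holds raw counts per Ensembl gene, whole and not normalized, for 43 bulk RNA-seq libraries, with each column naming 1 sample. The submitters' processing notes list build GRCm39, HISAT2 and kallisto; versions, the counting tool, annotation and strand setting are not given there or in the labels. Trizol was used for extraction, per the labels' protocols. Identifiers were matched to symbols, exonic lengths and overlapping genes in GENCODE vM21 (GRCm38), with a symbol for 52029 of 57010. No 2 libraries were identical.

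Hearts, endothelial cells and cardiomyocytes were fitted separately in edgeR 4.0.16 (R 4.3.3; TMM factors, filterByExpr with a count minimum of 10 and a total minimum of 15, a mean per group and the robust quasi-likelihood F-test), and compartments were compared in a fit of the 18 homeostasis libraries. The p-values were adjusted by Benjamini and Hochberg over all genes of a fit, and a gene was called if its adjusted p was under 0.05. Shares of all genes are those called in this way by edgeR, and none is given for unadjusted p or DESeq2. Values written as a ± b beside an adjusted p are log2 fold changes ± SE, where the SE is the change divided by the square root of F. Levels are CPM with TMM factors over all 43 libraries, mean ± SD. Likeness is Pearson's r of log2 CPM (prior count 2) among genes with a mean of at least 1 on that scale. The fits were tested on simulated data. The members, gene lists and marker lists were chosen with earlier results of these data known. All 7 members are named, and from each related list up to 3 genes per direction with the smallest adjusted p could be named; those whose call 1 library decides were mostly given as counts, a choice made after seeing the data. Alternatives were the size factors of DESeq2, library size alone, no filter on low counts, fits of the 2 groups compared, a replicate block, DESeq2 1.42.0, and fits without each library in turn or without those that stand apart. Same-numbered libraries deviated together in hearts at homeostasis (r = 0.591, 0.31 and 0.333), a pairing seen in the data and not stated in the labels. In all other groups r was below 0.1 for every pair (at most 0.0844). Figures were drawn with matplotlib 3.10.9 (Python 3.11.15, numpy 2.4.6, pandas 2.3.3). Single-nucleus data were not analysed here. The values of 1 gene of the related lists are not reported here.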

Additional observations from a re-analysis of the deposited data

Results flagged for a closer look

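In wild-type hearts of day 7, library 2 stood far from the other 3 in 3 members: Apln was 5.44 CPM, Calcrl 38.5 CPM and Ramp2 31.55 CPM. It was the highest of its group in Apln and Calcrl and the lowest in Ramp2. A test for 1 stray library was made in 21 sets, each of 1 member in 1 group of 4 libraries, and chance marks about 1 set in 20. The sets share libraries, so they are not independent, and every mark fell on this library.

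The MI change differed between day 30 and day 7 in hearts, tested as day 30 over day 7. In Q150X the difference was 2.12 for Apln, 0.69 for Ramp1 and -0.85 for Ramp2 on the log2 scale. In wild type it was 2.30 for Apln, 1.16 for Adm and 0.95 for Ramp1.

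At day 3, every endothelial library lay on one side of its homeostasis mean CPM and every cardiomyocyte library on the other for several members, a difference between fractions that was not tested. In Q150X the log2 changes were -2.45 in endothelial cells and 1.60 in cardiomyocytes for Aplnr, -1.16 and 1.49 for Calcrl, and -1.84 and 0.64 for Ramp2. In wild type they were 2.13 and -0.92 for Apln, and -0.97 and 0.62 for Aplnr. For Aplnr, wild-type cardiomyocyte library 3 of day 3 (7.40 CPM) was level with the homeostasis mean (7.40). Ramp2 in cardiomyocytes had log2 changes of 0.64 in Q150X and -0.45 in wild type. All Q150X libraries of day 3 lay above their homeostasis mean CPM, while wild-type library 1 (5.03) was level with its mean (5.05) and the other 2 lay below; this difference of genotypes was tested in the interaction and did not pass (1.09 ± 0.52, adjusted p = 0.64).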

How the results depend on the processing

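Of 2407 member values under the alternatives, 72 lost a call, 89 gained one and 2 reversed, and among the 1785 uncalled both ways 160 changed sign and are not counted as reversals. These totals include fits that left 1 library in an endothelial group of day 3. The reversals, both with library size alone, were Apln in Q150X endothelial cells over cardiomyocytes (1.04) and Ramp1 in the wild-type pair (0.32). Of the 20 calls outside the compartment comparisons 8 were kept under every alternative, and of the 21 compartment calls 19 were. Counts of members changed, with the range over single libraries left out, moved as follows. Genotype in endothelial cells of day 3 (0) gave 1 with library size alone and 3 with DESeq2. In endothelial cells of day 3, leaving out a library can leave 1 in a group. Ranges are thus not given there, except for the endothelial interaction below. The upper end of that range is from the fit without Q150X library 1 of day 3, which leaves 1 library in its group. That upper end is not counted as a result. Genotype in cardiomyocytes at homeostasis (0) gave 2 with no filter and 1 with DESeq2. Day 7 gave 3 to 5 in Q150X hearts (4), and in wild-type hearts (4; 2 to 4) 2 with no filter and 2 without the libraries that stand apart. Day 30 gave in Q150X hearts (1; 0 to 2) 0 with no filter and 2 with the groups alone, and in wild-type hearts (0; 0 to 1) 1 with DESeq2 size factors, 1 with the groups alone, 1 with DESeq2 and 2 without the libraries that stand apart. Day 30 over day 7 gave 2 to 4 in Q150X hearts (3), and in wild-type hearts (3; 1 to 3) 5 without the libraries that stand apart. Endothelial cells of day 3 gave in Q150X (3) 5 with library size alone, 0 with the groups alone and 5 with DESeq2. In wild type (0) they gave 1 with library size alone, 4 with the groups alone and 1 with DESeq2. Cardiomyocytes of day 3 gave 2 to 4 in Q150X (2), and in wild type (0; 0 to 1) 1 with library size alone, 2 with no filter and 1 with DESeq2. The endothelial interaction (0) ranged from 0 to 6 and the cardiomyocyte interaction (0) gave 1 with no filter. The cause of these moves was not tested.

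With the replicate block the count was 0 in Q150X hearts of day 30 (Aplnr -1.11, adjusted p = 0.12), 1 in Q150X endothelial cells of day 3 (Aplnr -2.55, adjusted p = 0.0928; Calcrl -1.14, adjusted p = 0.106) and 1 in wild-type cardiomyocytes of day 3 (Apln -0.93, adjusted p = 0.0294). The block also lost the calls of Ramp2 in wild-type hearts of day 7 (0.56, adjusted p = 0.09) and, for day 30 over day 7, Ramp1 in Q150X (0.71, adjusted p = 0.0503) and Adm in wild-type hearts (1.15, adjusted p = 0.0503); it moved no other count by over 1.5 times and changed no genotype call at homeostasis, where numbers pair hearts. The labels do not say that a number marks a shared animal or batch. Depth limits Ramp3 in cardiomyocytes and Calca in endothelial cells at homeostasis, where single libraries held 0 counts.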
